A study of Mus musculus with 16 samples.

Results

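Rab GTPases are the largest branch of the Ras superfamily of small G proteins. The genes described here are those whose mouse symbol is Rab followed by a number and at most a letter and a further digit, with pseudogenes left out, which gave 59 of the 45513 genes in the count files. A Rab protein is switched on when an exchange factor loads it with GTP and switched off when a GTPase-activating protein makes it hydrolyse that GTP. In its active form it sits on a particular membrane through a lipid anchor and recruits effectors, which are motors, tethers and docking proteins that move a vesicle and attach it to its target. In the colonic epithelium these routes carry mucin granules to the apical surface of goblet cells, sort receptors and transporters to the apical and basolateral membranes of absorptive cells, and deliver cargo to lysosomes.

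The data were 16 RNA-sequencing libraries from the colons of 8 Atoh1(WT)CreERT2 R26RtdTom mice on a C57BL/6 background, males and females of 8 to 16 weeks. All mice carried the same alleles. CreERT2 is made downstream of the coding sequence of Atoh1, the transcription factor that commits epithelial progenitors to secretory fates, and tamoxifen-activated Cre switches on the tdTom reporter permanently, so that the label marks cells that expressed Atoh1 and whatever descends from them. Per the labels all mice received 1 mg tamoxifen per day on 3 days. Live EpCAM+ epithelial cells of each fractionated colon were then sorted into tdTom+ and tdTom- cells, so that each group held 8 libraries and each mouse gave 1 of each. The cells of 1 animal were therefore compared with each other, and tdTom- cells, the unlabelled epithelium of the same mice, served as the reference.

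Total counts per library ran from 16482530 to 24218367 in tdTom+ cells and from 18318172 to 45791503 in tdTom- cells. Mouse 4 gave the deepest library, its tdTom- cells, and both of its libraries had the lowest share of mitochondrial counts of their group, 2.23% and 3.74%. That share was lower in the tdTom+ library of all 8 mice, 2.23% to 6.92% with a median of 4.985% against 3.74% to 9.97% with a median of 7.45% in tdTom- libraries, and its part in the results was not tested. A count of 3, taken as the smallest that can be read, was worth 0.124 to 0.182 counts per 1000000 (CPM) in tdTom+ libraries and 0.0655 to 0.164 CPM in tdTom- libraries, which covers counting error only. Atoh1 itself had a median of 127 CPM in tdTom+ cells and 5.38 CPM in tdTom- cells. Of the marker lists, 9 of 9 goblet genes and 2 of 2 deep crypt secretory genes were higher in tdTom+ cells, while 8 of 8 absorptive, 6 of 6 enteroendocrine, 4 of 4 stem cell and 3 of 3 proliferation genes were lower. Of 4 tuft cell genes, 3 were lower and Pou2f3 was not past the threshold. Summed goblet markers were 51322 to 107070 CPM against 2268 to 8814 CPM, summed absorptive markers 357 to 690 CPM against 6020 to 11853 CPM, and summed enteroendocrine markers 246 to 628 CPM against 1262 to 3507 CPM. These marker lists moved with the populations in every comparison that follows, and their part in the results was not tested. Immune and stromal markers summed to at most 14.9 and 8.15 CPM in any library, but also moved with the populations. Ptprc, the pan-leukocyte gene CD45, had 1.27 to 3.02 CPM in tdTom+ and 3.27 to 9.56 CPM in tdTom- cells and was lower, as were Pecam1, of endothelium, and Acta2, of smooth muscle, while the myeloid gene Itgam was not past the threshold. The T cell gene Cd3e and the fibroblast gene Col3a1 were each under 0.22 CPM in every library.

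Rab genes took up more of the transcriptome of tdTom+ cells. They held 0.379% to 0.456% of all counts in the tdTom+ libraries and 0.272% to 0.322% in the tdTom- libraries, and the ranges did not overlap. Every one of the 59 genes had at least 1 count, and 50 passed the filter on low counts and were tested. Differences were called at an adjusted p of 0.01 from edgeR's quasi-likelihood test with the mouse as a term, adjusted over all 15841 genes tested. Of the 50 Rab genes, 19 were higher in tdTom+ cells, 9 were lower and 22 were not past the threshold. Across all genes tested 28.4% were higher and 28.9% were lower, 57.2% in either direction, so that Rab genes were called about as often as other genes and 38% of them lay on the higher side. The median log2 fold change was 0.061 over the Rab genes and 0.003 over all genes. A change of at least 1 on the log2 scale was found in 8 Rab genes that were higher and 2 that were lower, beside 7.6% and 9.16% of all genes. In 15 Rab genes all 8 tdTom+ libraries lay above all 8 tdTom- libraries, and in 4 all lay below, where 15.2% and 15.3% of all genes tested were separated in those directions. In sorted bulk samples fewer cells of a type and less RNA per cell cannot be told apart, here and in all values below.

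**Figure D1:**
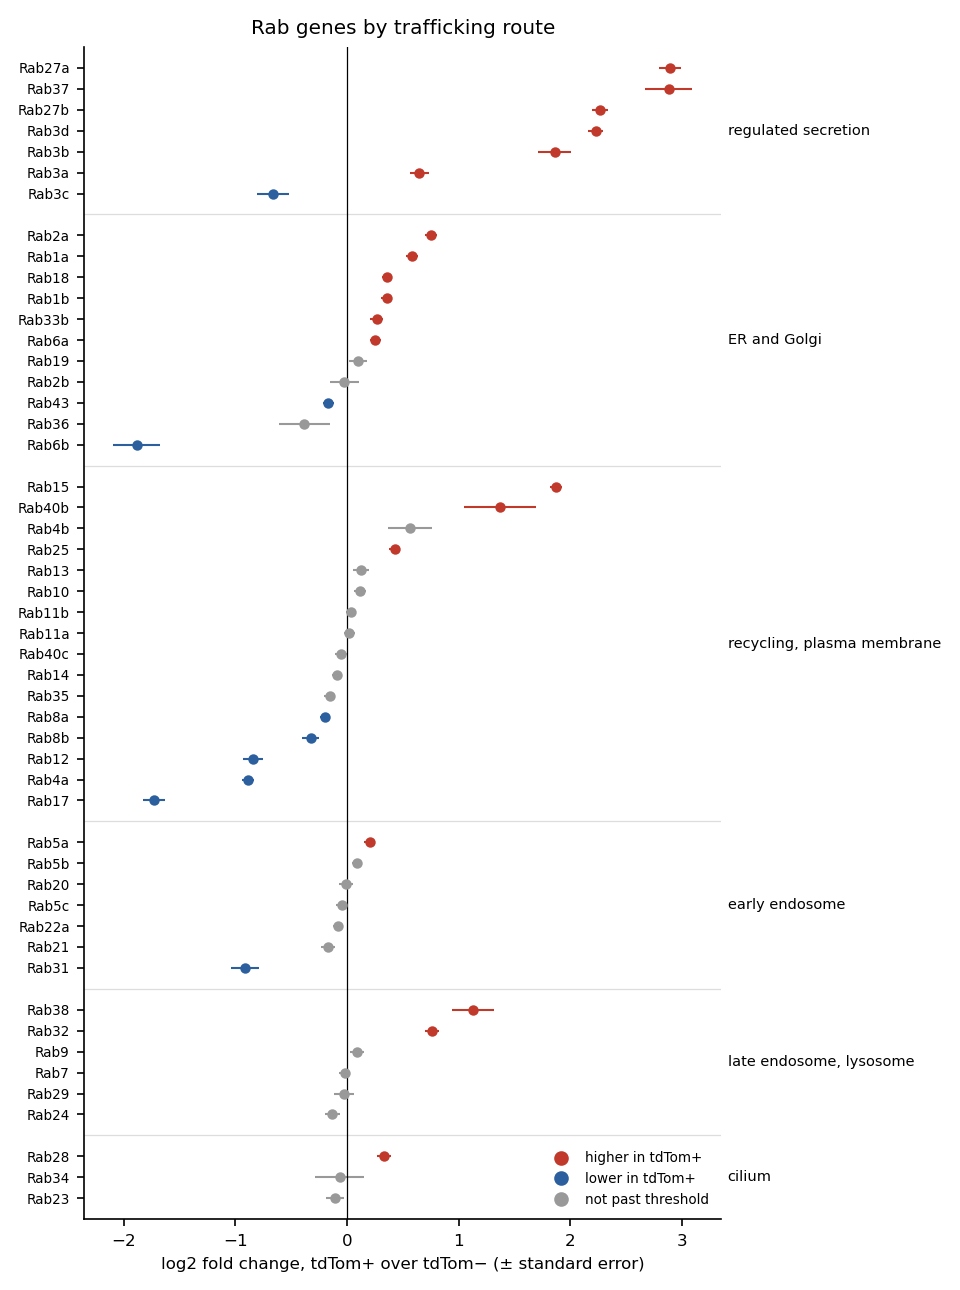
Log2 fold change of the 50 tested Rab genes, tdTom+ over tdTom- cells, with the standard error as a bar and genes grouped by the membrane route they serve. Red points were higher, blue points lower and grey points not past an adjusted p of 0.01. The Rab genes of regulated secretion reach 2.90, while the early endosome group lies between -0.92 and 0.20.

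Rab genes of regulated secretion showed the largest changes. This group directs the docking and release of stored granules and held 9 members, of which 7 were tested. Of these, 6 were higher, 1 was lower and none fell short of the threshold, with a median log2 fold change of 2.23. That is 85.7% higher and 14.3% lower, beside 28.4% and 28.9% of all genes tested. The summed level of the group was 782 to 964 CPM in tdTom+ cells and 161 to 212 CPM in tdTom- cells. The other members of the group, Rab26 and Rab44, were near 0. Rab26 had 8 counts over the tdTom+ and 12 over the tdTom- libraries, and Rab44 had 12 and 13. Exons of Rab26 share 267 of 2852 bases with Traf7, a gene on the same strand with 32997 counts. How reads of that stretch were assigned was not tested.

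Rab27a (ENSMUSG00000032202, chr9:73044854-73097629, plus strand of GRCm38) tethers secretory granules and lysosome-related organelles to the plasma membrane. It had 96.6, 114 and 125 CPM in the lowest, median and highest tdTom+ library and 9.33, 15.4 and 19.6 CPM in the tdTom- libraries. The populations did not overlap, and the lowest tdTom- value came from mouse 4. The log2 fold change was 2.90 ± 0.10 (SE, n = 8 mice), a 7.45-fold difference with an edgeR adjusted p of 3.97e-14. Its close relative Rab27b, which acts on granule docking beside it, had 139, 157 and 172 CPM in tdTom+ cells and 26.8, 33.3 and 39.4 CPM in tdTom- cells. Here too every tdTom+ library lay above every tdTom- library, and the log2 fold change was 2.27 ± 0.07 (adjusted p = 1.78e-14, edgeR). Exons of Rab27a share 149 of 3879 bases with a predicted gene on the same strand that had 1 count in all.

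Rab3d, a Rab of the granule membrane in exocrine cells, had the highest level of the group. The lowest, median and highest tdTom+ libraries had 494, 576 and 628 CPM and the tdTom- libraries 101, 124 and 139 CPM. The 2 populations were thus far apart in all mice, with a log2 fold change of 2.23 ± 0.07 (edgeR adjusted p = 7.69e-15). Rab3d lies at chr9:21907491-21918192 on the minus strand. Rab3b, a paralog that acts in exocytosis of neuroendocrine and epithelial cells, was far scarcer, with 2.34, 4.35 and 7.23 CPM against 0.602, 1.28 and 1.57 CPM. Its populations did not overlap either, although mouse 4 gave the lowest library of both, and its log2 fold change was 1.86 ± 0.15 (adjusted p = 5.18e-09). Rab37, linked to exocytosis from mast cells and other secretory cells, had 8.78, 14.5 and 26.9 CPM in tdTom+ and 1.22, 2.35 and 2.93 CPM in tdTom- cells. The tdTom+ libraries of mice 1 and 4 were well above the other 6, with no overlap between populations, and the log2 fold change was 2.88 ± 0.21 (adjusted p = 1.65e-09, edgeR).

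Rab3a, the Rab of synaptic vesicles and endocrine granules, was higher by a smaller margin, with a log2 fold change of 0.65 ± 0.08 and no overlap between populations. Rab3c, another Rab of regulated exocytosis in neurons and endocrine cells, was the exception. It had 3.01, 4.38 and 5.52 CPM in tdTom+ cells and 3.32, 7.20 and 11.01 CPM in tdTom- cells. The populations overlapped where the tdTom- library of mouse 4 lay among the tdTom+ libraries, and Rab3c was lower in 7 of 8 mice with a log2 fold change of -0.66 ± 0.14 (adjusted p = 0.000574, edgeR). The same library had the lowest summed enteroendocrine markers of the tdTom- group, 1262 CPM, where the others had 1580 CPM or more. It was also the lowest of that group in summed goblet, deep crypt secretory, absorptive and tuft markers. In summed stem cell and proliferation markers it was the highest. The part of these marker lists in the result was not tested.

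**Figure D2:**
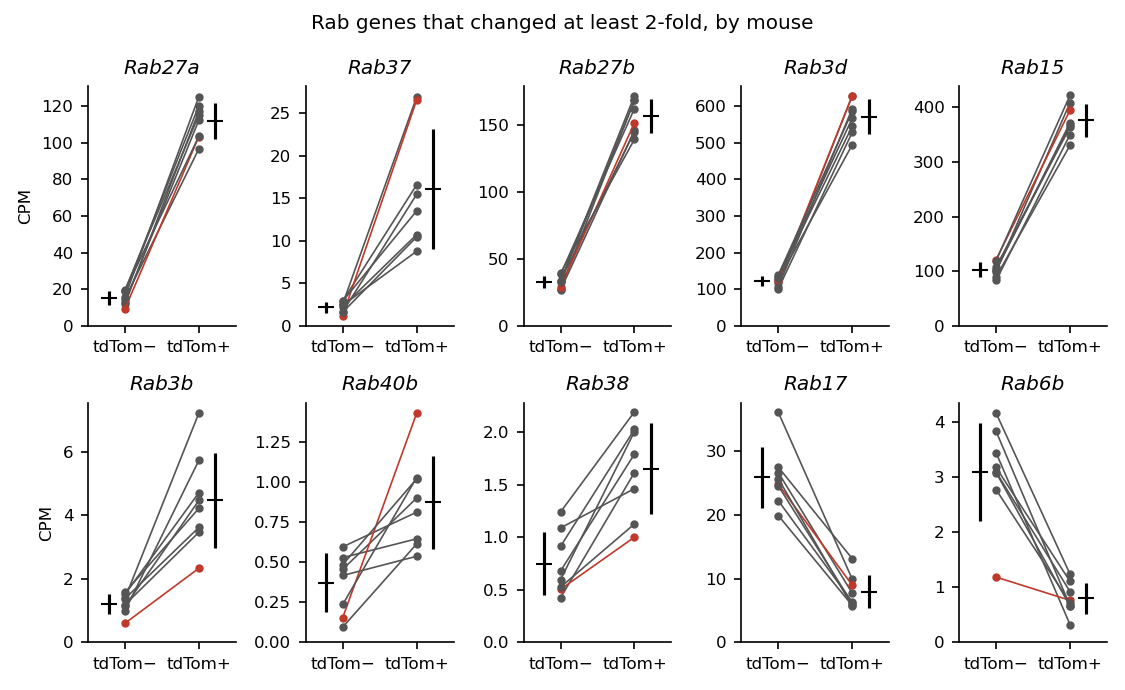
CPM of the 10 Rab genes that changed at least 2-fold, on linear axes that start at 0. Each line joins the tdTom- and tdTom+ library of 1 mouse, mouse 4 is drawn in red, and the black bars beside the points are the mean ± SD of 8 libraries. The first 8 genes are higher and Rab17 and Rab6b lower in the tdTom+ library of every mouse.

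The promoters of these genes were searched for the E-box letters CAGCTG, since basic helix-loop-helix factors, Atoh1 among them, bind hexamers of this class. RefSeq promoters of GRCm38.p6, 250 bases before to 50 bases after each start, were matched for 48 of the 59 Rab genes by symbol. The entries missing included those of Rab27b, Rab37, Rab2a, Rab18 and Rab38 among the genes that were higher and Rab4a among those that were lower. The letters read the same on both strands and overlap no other motif searched. They occurred in 14 of the 48 Rab genes (29.2%) and in 18.3% of all 27025 genes with a promoter, or in 23.3% of 60 Rab promoters and 16.3% of all promoters. Among Rab genes higher in tdTom+ cells 5 of 14 held them, among those lower 3 of 8, and among those not past the threshold 4 of 21. A selection of 7 windows of 30 bases from called genes is shown, 4 higher and then 3 lower, so that the letters stand in promoters of both directions. Each is written 5′ to 3′ on the strand of its gene with the E-box in capitals.
Rab27a, chr9:73064121-73064150, plus strand: ccatatgacgagCAGCTGagactcattagc
Rab3a, chr8:70754905-70754934, plus strand: gcgtttcactgaCAGCTGggggatcaaggg
Rab40b, chr11:121388238-121388267, minus strand: ggcggggctcttCAGCTGtcaagctccccc
Rab6a, chr7:100607461-100607490, plus strand: cacctcagttagCAGCTGcctgccctccgc
Rab17, chr1:90967833-90967862, minus strand: ggagggccctggCAGCTGcactcttgacag
Rab6b, chr9:103111990-103112019, plus strand: ggggcccggccgCAGCTGgggagtcagggg
Rab3c, chr13:110280297-110280326, minus strand: caccgcccagtgCAGCTGgaggggctagcc

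The E-box began 15 bases before the RefSeq start in Rab27a, 4 in Rab40b, 113 in Rab6a and 185 in Rab3a. In the genes that were lower it began 72 bases before the start in Rab6b, 108 in Rab3c and 183 in Rab17. By the exons of the deposited files, which for several genes begin further upstream than the RefSeq start, the letters lay in an intron of Rab27a, Rab3a and Rab17, in an exon of Rab6a and Rab6b, across an exon edge of Rab40b, and outside the gene in Rab3c. A match is a description of letters and not of a bound site.

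Of the Rab genes of the early secretory pathway more rose than fell. The rises were small, and the largest change was the fall of Rab6b. These proteins move cargo from the endoplasmic reticulum to the Golgi and through it. Of 14 members 11 were tested, and 6 were higher, 2 were lower and 3 were not past the threshold, with a median log2 fold change of 0.25. That is 54.5% higher and 18.2% lower, beside 28.4% and 28.9% of all genes tested. Rab2a, which acts at the intermediate compartment between the endoplasmic reticulum and the Golgi, had the largest rise, from 135, 145 and 162 CPM in tdTom- cells to 227, 248 and 269 CPM in tdTom+ cells. That is a log2 fold change of 0.75 ± 0.05 with no overlap (adjusted p = 8.21e-10). Rab1a and Rab1b, which control vesicle traffic from the endoplasmic reticulum to the Golgi, rose by 0.58 ± 0.05 and 0.35 ± 0.05 on the log2 scale, again without overlap. Rab18, a Rab of the endoplasmic reticulum and lipid droplets, rose by 0.35, Rab33b, a Rab of the Golgi and autophagosomes, by 0.27, and Rab6a, which directs traffic within and out of the Golgi, by 0.25. In mice 1 to 3 alone Rab33b and Rab6a did not pass. Rab2b, Rab19 and Rab36, all linked to the Golgi, had log2 fold changes of -0.03, 0.10 and -0.38 and did not pass.

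Rab6b, the paralog of Rab6a best known from neurons, went the other way. It had 0.324, 0.741 and 1.24 CPM in the lowest, median and highest tdTom+ library and 1.19, 3.13 and 4.16 CPM in the tdTom- libraries. The populations overlapped only through the tdTom- library of mouse 4, since the next lowest tdTom- library was well above all tdTom+ libraries. Rab6b fell by 1.89 ± 0.21 on the log2 scale (adjusted p = 3.60e-07, edgeR), and was lower in 8 of 8 mice. It is encoded at chr9:103111787-103185276 on the plus strand. Rab43, a Golgi Rab linked to retrograde transport and receptor export, was lower by 0.17 on the log2 scale with overlapping populations (adjusted p = 0.0052). Without the mouse as a term its adjusted p was 0.0698, and without mouse 2, 3, 5, 6, 7 or 8 it lay between 0.0118 and 0.0211. Rab30 and Rab33a, both Golgi Rabs, and Rab42 were not tested. Rab33a had 3 counts over the 8 tdTom+ libraries and 91 over the 8 tdTom- libraries, and its highest tdTom+ library, at 0.103 CPM, lay below its lowest tdTom- library, at 0.355 CPM. Rab30 had 29 counts against 95 and Rab42 had 73 against 47, with overlapping populations.

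Rab genes of recycling and of transport to the plasma membrane moved in both directions. All 16 members were tested, of which 3 were higher, 5 were lower and 8 were not past the threshold, with a median log2 fold change of -0.02. That is 18.75% higher and 31.25% lower, beside 28.4% and 28.9% of all genes tested. Rab15, an endosomal Rab of the recycling route, had 331, 370 and 422 CPM in the lowest, median and highest tdTom+ library and 83.2, 102 and 121 CPM in the tdTom- libraries. No library of 1 population reached the other. The log2 fold change was 1.87 ± 0.05, with an edgeR adjusted p of 4.68e-15. The gene lies at chr12:76797960-76822908 on the minus strand. Rab25, an epithelial relative of Rab11 that serves apical recycling, rose by 0.43 ± 0.05 from a median of 162 to 219 CPM without overlap. Rab40b, a Rab that works with a ubiquitin ligase complex, rested on few reads, 138 counts in tdTom+ and 62 in tdTom- cells over 8 libraries each. Its libraries had 0.538, 0.857 and 1.43 CPM against 0.0956, 0.437 and 0.597 CPM, and the populations overlapped. The log2 fold change of 1.37 ± 0.32 passed (adjusted p = 0.0011, edgeR) and was in 1 direction in 8 of 8 mice. It was 1.04 without mouse 4 and 0.58 in mice 1 to 3 alone, where it did not pass (adjusted p = 0.285), and without mouse 2 the gene did not pass the filter.

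Rab17, an epithelial Rab of apical recycling and transcytosis, was the most reduced member of this group. The lowest, median and highest tdTom+ libraries had 5.66, 7.04 and 13.1 CPM and the tdTom- libraries 19.9, 25.2 and 36.1 CPM. All tdTom+ libraries lay below all tdTom- libraries, with the tdTom+ sample of mouse 3 nearest to them. The log2 fold change was -1.73 ± 0.10 (adjusted p = 3.95e-11, edgeR), and the gene lies at chr1:90958133-90969661 on the minus strand. Rab4a, which returns endocytosed receptors to the surface quickly, fell by 0.89 ± 0.06 on the log2 scale, and Rab12, which sends recycling endosomes towards lysosomes, fell by 0.84 ± 0.09. Neither overlapped between populations. Rab8b and Rab8a, which serve delivery to the plasma membrane and the cilium, fell by 0.33 and 0.20. Neither passed in mice 1 to 3 alone, nor Rab8b in mice 5 to 8 alone.

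The main Rabs of the recycling endosome had nearly equal levels in both populations. Rab11a and Rab11b had log2 fold changes of 0.02 ± 0.05 and 0.04 ± 0.04, with medians of 92.4 and 113 CPM in tdTom+ cells and 90.001 and 112 CPM in tdTom- cells. With library totals in place of TMM scaling both were slightly below 0. Rab10, Rab13, Rab14, Rab35 and Rab40c, which serve surface delivery, junctions, endosome recycling and ubiquitin ligases, lay between -0.15 and 0.13 and were not past the threshold. Rab4b had a log2 fold change of 0.57 ± 0.20 (adjusted p = 0.0175, edgeR) at about 1 CPM. Its value is uncertain, since 1280 of its 1970 exon bases lie in a predicted gene on the same strand, Gm21983, to which no read was assigned. Reads of Rab11b can be divided with its pseudogene Rab11b-ps2, which had 4178 counts.

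Of the early endosome Rabs, 1 of 7 was higher, 1 was lower and 5 were not past the threshold. That is 14.3% in each direction, beside 28.4% higher and 28.9% lower of all genes tested. Rab5a, which drives fusion of incoming vesicles with early endosomes, was higher by 0.20 ± 0.05 on the log2 scale but did not pass in mice 1 to 3 or in mice 5 to 8 alone, and its paralogs Rab5b and Rab5c had 0.09 and -0.05. Rab31, which links the trans-Golgi network to endosomes, had 4.65, 5.24 and 6.61 CPM in tdTom+ and 5.38, 11.05 and 13.3 CPM in tdTom- cells. The populations overlapped through the tdTom- library of mouse 4, which was the lowest of its group. Rab31 fell by 0.92 ± 0.12 on the log2 scale (adjusted p = 4.62e-06, edgeR) and by 1.03 without mouse 4. Rab20, Rab21 and Rab22a, which act on endosomes and phagosomes, lay between -0.17 and -0.01.

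Among the Rabs of late endosomes, lysosomes and related organelles, 6 of 10 were tested, 2 were higher and none was lower. The share higher, 33.3%, was close to the 28.4% of all genes tested, of which 28.9% were lower. Rab38 and Rab32 build melanosomes and other lysosome-related organelles. Rab38 had 1.00, 1.71 and 2.20 CPM in tdTom+ and 0.424, 0.638 and 1.24 CPM in tdTom- cells. The ranges overlapped but each mouse had more in its tdTom+ library, and the log2 fold change was 1.13 ± 0.19 (adjusted p = 4.22e-05, edgeR). Rab32 was more abundant, with a median of 21.9 against 13.1 CPM, and rose by 0.76 ± 0.06 without overlap. Rab7, which governs fusion with the lysosome, had a log2 fold change of -0.02 ± 0.05 with medians of 204 and 210 CPM, and Rab9, Rab24 and Rab29 lay between -0.13 and 0.09. The untested members were scarce. Rab39b had 29 counts in tdTom+ and 100 in tdTom- cells, Rab7b had 0 and 12, and Rab39 and Rab9b had at most 3 in either population. Reads of Rab9b can be divided with its pseudogene Rab9b-ps1, which had 508 counts over all libraries.

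Of the cilium Rabs, Rab28, a Rab of photoreceptor cilia, was higher without overlap, with 23.9, 26.9 and 31.9 CPM against 20.6, 21.8 and 23.3 CPM. This difference was small in size, a log2 fold change of 0.33 ± 0.06 (adjusted p = 0.000164, edgeR), and in mice 5 to 8 alone Rab28 had 0.20 and did not pass. Rab23 and Rab34, which act in Hedgehog signalling and early ciliogenesis, had -0.11 and -0.07.

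Levels were compared between genes as reads per kilobase of exon per 1000000 (RPKM, mean ± SD of 8 libraries). In tdTom- cells the highest Rab genes were Rab25 at 97.6 ± 3.63, Rab7 at 80.2 ± 2.93, Rab1a at 72.3 ± 4.82, Rab5c at 70.6 ± 3.10 and Rab1b at 70.5 ± 4.33 RPKM. Rab25 stood clear of Rab7, while Rab1a, Rab5c, Rab1b and the next gene, Rab2a at 68.4 ± 4.22 RPKM, had means within 1 SD of each other. The SD is the spread between libraries, and differences between these genes within a library were not tested. In tdTom+ cells the order began with Rab3d at 136 ± 11.2, Rab25 at 131 ± 10.2, Rab2a at 115 ± 7.72, Rab1a at 108 ± 8.23 and Rab1b at 90.1 ± 6.60 RPKM. Within that order Rab3d and Rab25 lay within 1 SD of each other, as did Rab2a and Rab1a. The 5 highest genes made up 42.8% of the summed Rab RPKM in tdTom+ cells and 38.5% in tdTom- cells. Rab3d stood at rank 12 in tdTom- and rank 1 in tdTom+ cells, Rab15 at ranks 18 and 6, Rab27a at 35 and 15, and Rab27b at 37 and 24. Rab7 went from rank 2 to rank 7 at nearly the same level, 80.2 and 79.0 RPKM.

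**Figure D3:**
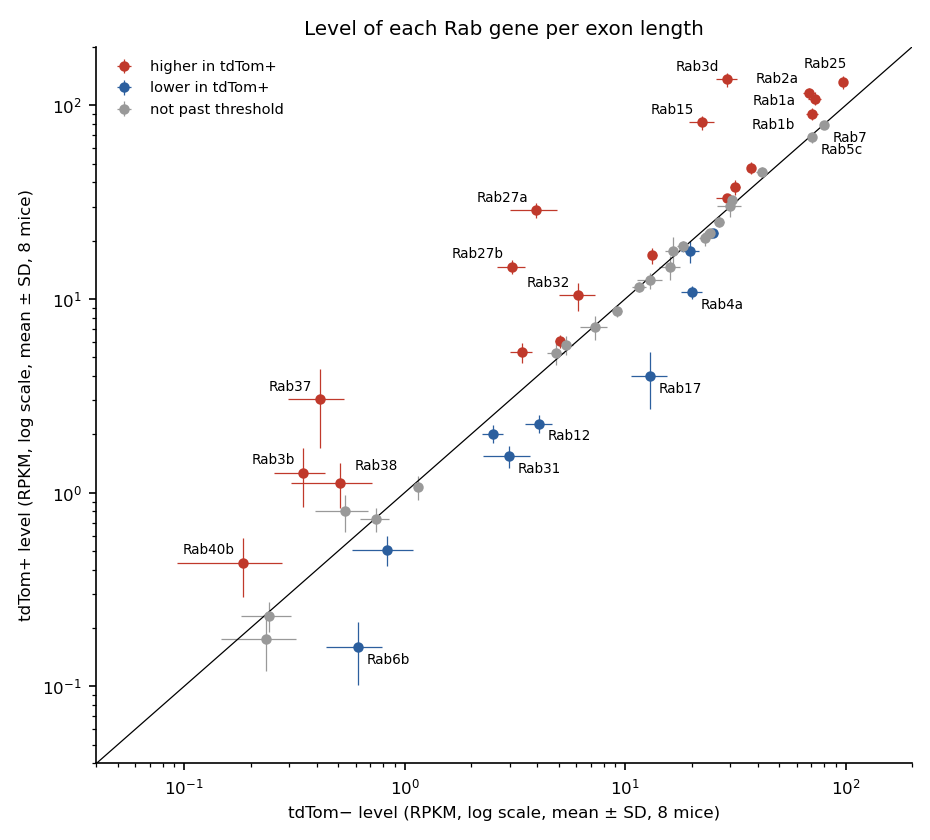
Level of each of the 50 tested Rab genes in tdTom- (x) and tdTom+ cells (y), in RPKM on log axes, as mean ± SD of 8 libraries. The diagonal marks equal levels. Rab3d lies at 29.1 and 136 RPKM and Rab17 at 13.0 and 3.997 RPKM, while Rab7 and Rab5c lie on the diagonal.

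Closely related Rab genes did not always move together. The ratio of their counts per kilobase was taken within each library, for 14 pairs, as a description with no test. In 5 pairs the ratios of the populations did not overlap. The log2 ratio of Rab6a to Rab6b had a median of 8.01 in tdTom+ and 5.61 in tdTom- cells, so that Rab6a was the prevailing form in both. For Rab27a over Rab27b the medians were 0.97 and 0.40, and the ratio was higher in the tdTom+ library of 8 of 8 mice. For Rab2a over Rab2b they were 7.22 and 6.53. For Rab4a over Rab4b they were 3.71 and 5.12, which carries the uncertainty of Rab4b, and for Rab40b over Rab40c -4.95 and -5.85. Rab11a over Rab25 was lower in the tdTom+ library of 8 of 8 mice, by a mean of 0.41 ± 0.18 (SD) on the log2 scale, with overlapping populations. The difference ran from -0.5426 to -0.0017, so that the mouse with the smallest fall hardly differed. For Rab11a over Rab11b the mean difference was -0.02 ± 0.16.

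**Figure D4:**
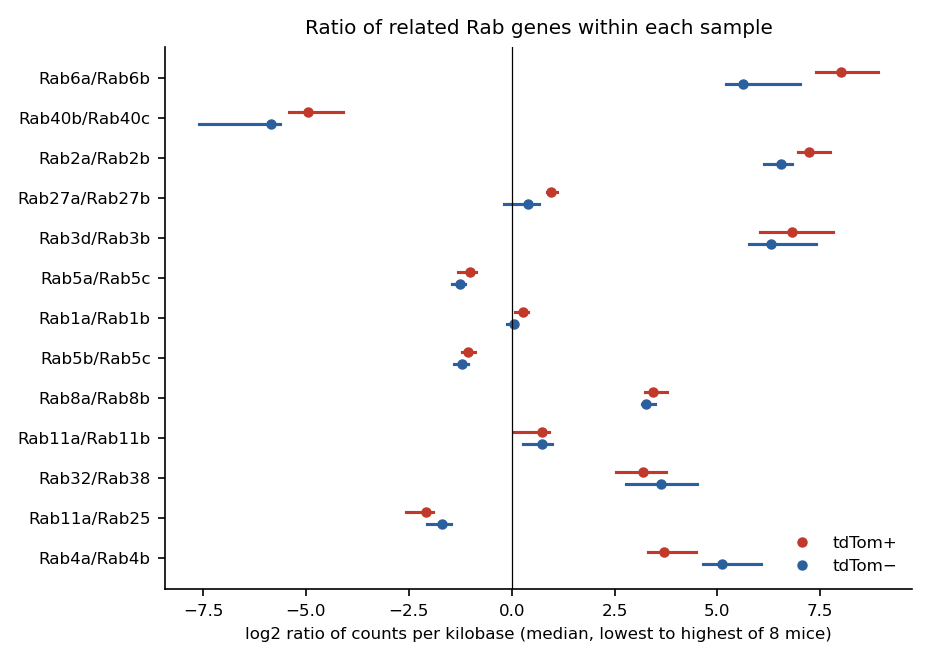
Log2 ratio of counts per kilobase of related Rab genes within each library, with 0.5 added to each count. Points are medians and lines run from the lowest to the highest of 8 libraries, red for tdTom+ and blue for tdTom- cells, for 13 pairs. Rab7 over Rab7b is not drawn because Rab7b was near 0. Rab6a over Rab6b lies near 8.01 in tdTom+ and 5.61 in tdTom- cells.

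The proteins that act on Rab GTPases were followed with a list of 119 regulators and effectors, of which 112 were tested. Of these 47 were higher, 30 were lower and 35 were not past the threshold, which is 42.0% and 26.8% in the 2 directions beside 28.4% and 28.9% of all genes tested, with a median log2 fold change of 0.12. Effectors of regulated secretion were higher in 8 of 10 tested genes, with a summed level of 780 to 962 CPM in tdTom+ and 211 to 283 CPM in tdTom- cells. Several of them bind Rab27 directly. Myrip, which links Rab27a to myosin motors, had 12.3, 19.8 and 29.8 CPM in the lowest, median and highest tdTom+ library and 0.237, 0.592 and 1.72 CPM in the tdTom- libraries, a log2 fold change of 4.86 ± 0.21. Sytl2, a synaptotagmin-like protein that docks Rab27 granules, had 226, 239 and 270 CPM against 8.48, 11.5 and 20.6 CPM, a log2 fold change of 4.24 ± 0.13. Both were separated in all libraries, with edgeR adjusted p of 8.02e-13 and 1.07e-14. Sytl4, known as granuphilin, rose by 2.59 and Mlph, which joins Rab27a to myosin Va, by 2.06. Sytl5, Rph3al, Sytl1 and Exph5, further Rab27 or Rab3 binders, rose by 1.12, 0.72, 0.62 and 0.62. Unc13d, the Munc13-4 priming factor that Rab27a recruits in blood cells, went against the group. It had 4.62, 5.98 and 7.23 CPM in tdTom+ and 16.5, 19.5 and 26.3 CPM in tdTom- cells and fell by 1.71 ± 0.08 on the log2 scale (adjusted p = 1.77e-12). Rims2 had -0.06 and did not pass, and Rims1, Rph3a and Sytl3 were not tested.

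**Figure D5:**
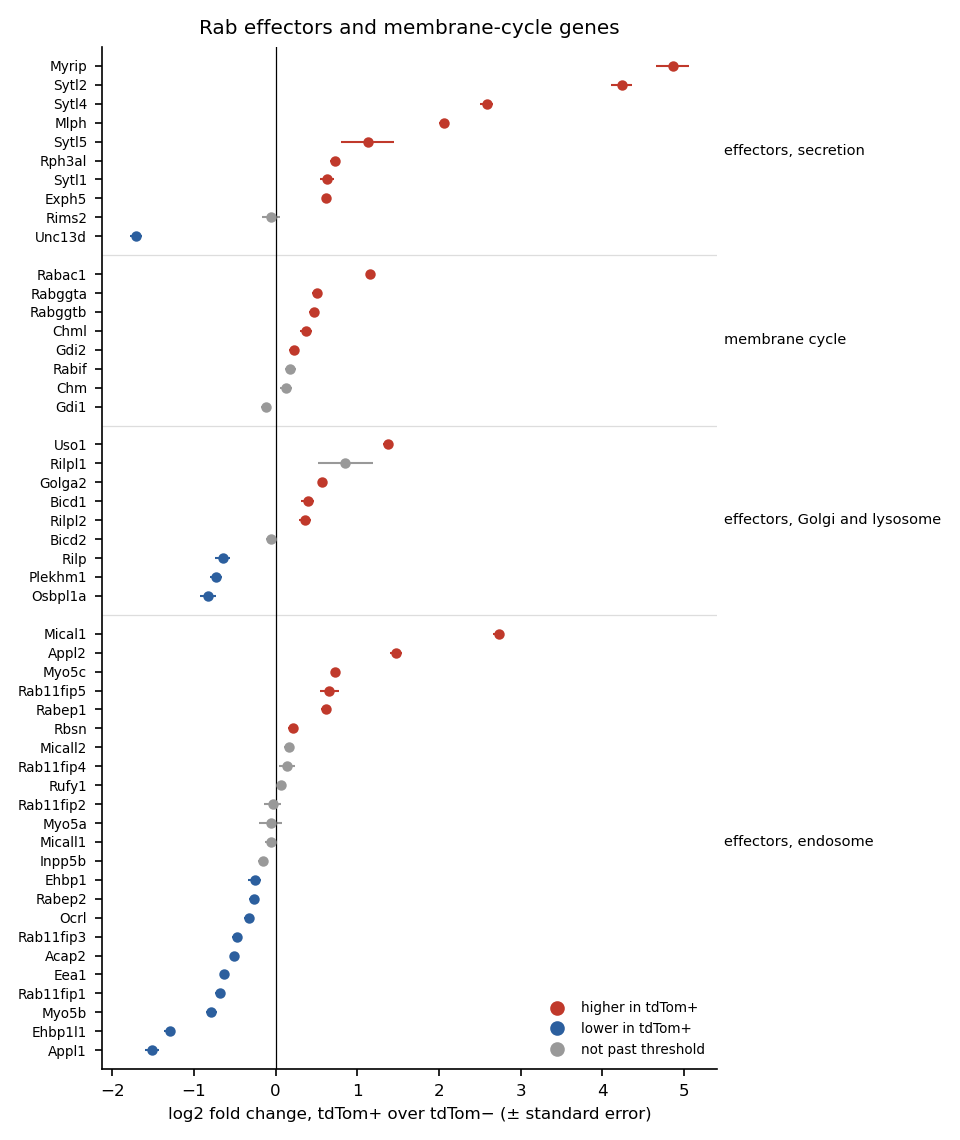
Log2 fold change, tdTom+ over tdTom- cells, with standard error, of 50 tested Rab effectors and membrane-cycle genes in 4 groups. Red points were higher, blue points lower and grey points not past an adjusted p of 0.01. Secretion effectors run from -1.71 for Unc13d to 4.86 for Myrip, and effectors of endosomes from -1.51 for Appl1 to 2.73 for Mical1.

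Effectors of endosomes and recycling were mixed, with 6 higher, 10 lower and 7 not past the threshold of 23 tested. That is 26.1% and 43.5%, beside 28.4% and 28.9% of all genes tested. Mical1, an actin-oxidising protein that binds several Rabs, rose by 2.73, the largest rise in this group. Appl1, an adaptor of early Rab5 endosomes, fell by 1.51, while its paralog Appl2, which also binds Rab31, rose by 1.47. Myo5b, the motor of Rab11 and Rab25 vesicles, fell by 0.79 and Myo5c, a myosin V of exocrine cells, rose by 0.72. Rab11fip1, an adaptor of Rab11 and Rab25, fell by 0.68, and Ehbp1l1, a Rab8 effector of apical transport, fell by 1.30. Of 9 effectors of the Golgi and lysosome, 4 were higher and 3 were lower. Uso1, the p115 tether that Rab1 recruits, had the largest change at 1.38, and Bicd1, a dynein adaptor of Rab6, rose by 0.39 while Bicd2 had -0.05 and did not pass.

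Among GTPase-activating proteins 15 (50%) were higher, 8 (26.7%) were lower and 7 were not past the threshold of 30 tested. Tbc1d16 had the largest rise, 2.70, from a median of 9.52 to 59.3 CPM, followed by Sgsm1 with 2.08, from 18.2 to 77.8 CPM, both without overlap. Tbc1d2, which acts on Rab7, fell by 1.28 and Tbc1d9 by 1.06. Tbc1d10a, an inhibitor of Rab27a and Rab35, rose by 0.34, while its paralog Tbc1d10b fell by 0.60 without overlap. Of 32 exchange factors tested 9 were higher, 8 were lower and 15 were not past the threshold. These shares, 28.1% and 25%, were close to the 28.4% and 28.9% of all genes tested. Mon1a and its partner Ccz1, which activate Rab7, rose by 1.20 and 0.49, and Dennd5b fell by 1.26. Madd, the exchange factor of Rab3 and Rab27, had a log2 fold change of 0.04 ± 0.05 and did not pass. Rab3gap1 and Rab3gap2, which inactivate Rab3 and activate Rab18, had 0.13 and 0.12, and Hps1 and Hps4, the exchange factor of Rab32 and Rab38, had 0.09 and -0.12, none past the threshold. Ric1 and Rgp1 together activate Rab6, and while Ric1 had 0.11 and did not pass, Rgp1 fell by 0.35. Of the 8 genes that prenylate Rabs and carry them on and off membranes, 5 were higher and 3 were not past the threshold. Rabac1, a Golgi protein that frees Rabs from their carrier, rose by 1.15, the prenyl transferase subunits Rabggta and Rabggtb by 0.50 and 0.47, Chml by 0.37 and Gdi2 by 0.22.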

How the data were processed

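Messenger RNA of sorted EpCAM+ tdTom+ and tdTom- colon cells was sequenced by the authors in stranded libraries. Per the submitters' notes, reads were aligned with TopHat2 2.1.1 to GRCm38 and compared with DESeq2 1.14.1. Those notes name Subread 1.5.2 for counting, while the file headers name featureCounts 1.5.0-p1. The deposited values are raw counts per gene, from primary alignments on the reverse strand, not normalized. The study's methods give another tamoxifen dose and time for sequencing than its animal methods and the labels do. Symbols came from GENCODE M21 for 44585 of the 45513 genes.

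Under R 4.3.3, edgeR 4.0.16 was applied to the counts (TMM scaling, filterByExpr, glmQLFit, glmQLFTest, mouse as a term, Benjamini-Hochberg over 15841 genes, adjusted p under 0.01). A standard error is the log2 fold change over the root of F. Log2 CPM used a prior count of 2, and CPM and RPKM used TMM library sizes. Both libraries of a mouse number come from 1 animal: their deviations from the group means correlated at 0.223 to 0.408, against at most 0.168 between mice. The lowest chi-square per degree of freedom between libraries of a group was 11.7, so all 16 counted separately.

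The Rab genes, the lists of roles, regulators, markers and pairs, and the tests were chosen with earlier results of these data known. Full values were given for Rab genes past the threshold with a log2 change of at least 1 and for the largest change in each role group. The 6 largest regulator changes in each direction were named, and regulators acting on those Rabs. The alternatives were no mouse term, RLE, upper-quartile and total-count scaling, no filter, at least 10 counts in all samples, DESeq2 1.42.0, an adjusted p of 0.05, each mouse left out, mice 1 to 3 or 5 to 8 only, 5 in place of 0.5 added to ratios, and total library sizes for RPKM. How the counting treated reads that paralogs share was not tested. Tables were made with Python 3.11.15, numpy 2.4.6 and pandas 2.3.3. A promoter window and a marker gene are not reported here.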

Additional observations from a re-analysis of the deposited data

Results flagged for a closer look

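In each of 100 groups (50 Rab genes in 2 populations of 8 libraries) the lowest and highest library were compared with the rest, and 8 groups held a library far from the others by Dixon's criterion. Chance marks about 1 in 20 groups, here 5. Of the 8 libraries, 5 came from mouse 4. In the tdTom- library of mouse 4, the largest by depth, Rab3b was at -0.64 log2 CPM where the other 7 were at 0.13 to 0.74, Rab6b at 0.29 where they were at 1.52 to 2.09, and Rab36 at -0.98 where they were at 0.28 to 1.22. In the tdTom+ library of that mouse Rab11a was at 6.06 (others 6.42 to 6.67) and Rab11b at 7.04 (others 6.74 to 6.87), so that 1 of these paralogs was low and the other high. Rab10 was at 6.99 (others 7.16 to 7.26) and Rab12 at 4.02 (others 3.45 to 3.72) in the tdTom- library of mouse 1, and Rab11b at 6.62 (others 6.77 to 6.88) in that of mouse 6. Without mouse 4 the log2 fold changes were -2.02 for Rab6b and 1.87 for Rab3b.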

How the results depend on the processing

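All 28 called Rab genes kept their direction in every alternative that tested them. With no replicate block, that is, without the paired mouse term, 19 Rab genes were higher and 8 lower, since Rab43 was lost, and the median was 0.064. RLE scaling and DESeq2 kept all 28 calls, upper-quartile and total-count scaling added Rab21 and Rab35, and no filter lost Rab43 and added Rab4b. Under a minimum of 10 counts in every sample, Rab6b, Rab38 and Rab40b were not tested and Rab35 was added. An adjusted p of 0.05 added Rab4b, Rab21 and Rab35. Leaving out mouse 1 added Rab21 and leaving out mouse 4 added Rab4b. Mice 1 to 3 alone kept 21 calls, without Rab5a, Rab6a, Rab8a, Rab8b, Rab33b, Rab40b and Rab43. Mice 5 to 8 alone kept 24, without Rab5a, Rab8b and Rab28, and without Rab40b, which was not tested there. With total counts the median Rab log2 fold change was 0.011 and that of all genes -0.047, Rab11a was at -0.030 and Rab11b at -0.014. Rab20 was at 0.004 with no filter. In mice 1 to 3 Rab2b was at 0.037, Rab20 at 0.020 and Rab29 at 0.249. Over the mice left out in turn Rab2b ran from -0.071 to 0.054, Rab20 from -0.035 to 0.026, Rab29 from -0.081 to 0.018 and Rab11a from -0.010 to 0.055, and none of these 4 genes was past the threshold. With 5 added to each count, the Rab7 over Rab7b difference moved from 1.58 to 0.132. The cause of these shifts was not tested. Genes with under 200 counts over all libraries, such as Rab33a, limit what this depth can show.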

Other observations

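Genes near the Rab family, chosen after the data were seen, held further changes. Rep15, which encodes an effector of Rab15, had 120 to 160 CPM in tdTom+ and 3.76 to 13.6 CPM in tdTom- cells, a log2 fold change of 4.19 ± 0.18 (edgeR adjusted p = 1.20e-12), beside 1.87 for Rab15 itself. Of 8 GTPases outside the symbol rule, such as the Rab-like genes, 4 were higher and none was lower, where 28.4% of all genes tested were higher and 28.9% lower. Cracr2a, a gene known for a calcium-binding Rab GTPase, had the largest change at 2.89 ± 0.08. It had 2.91 to 5.64 CPM in tdTom- cells and 24.7 to 50.3 CPM in tdTom+ cells. The exons counted for Cracr2a held 1094 bases, and which protein form they encode was not tested. Rabl3 (0.69), Rabl6 (0.46) and Rasef (0.34) followed. Of 14 genes for subunits of TRAPP, the complex that activates Rab1 and Rab11, 8 were higher and none was lower, with a median of 0.18 and at most 0.60 for Trappc2, and 57.2% of all genes tested were called in either direction. Lrrk1 and Lrrk2, kinases that phosphorylate Rab proteins, had log2 fold changes of 0.49 and -0.27, both past the threshold. Sytl3, a synaptotagmin-like gene under the filter, had 16 counts in tdTom+ and 117 in tdTom- cells, with no overlap in CPM.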
